A study of Mus musculus with 6 samples.

Results

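The type I interferon antiviral effector genes are a set of 10 genes chosen by symbol (Ifit1, Ifit2, Ifit3, Isg15, Rsad2, Oasl2, Usp18, Ifi44, Rtp4 and Bst2) from the 54532 genes of a hippocampal RNA-seq table. All 10 symbols were found, each in 1 row, and all 10 were among the 20952 genes tested, those whose mean FPKM over the 6 libraries reached 0.1. Ifi44 reached this level only through the TG libraries, since its WT mean was 0.0583, so it has no weight as support. The libraries came from 3 TG mice and 3 wild-type (WT) mice. The TG mice are knock-in animals made with CRISPR/Cas9 on a C57BL/6N background, carrying G82R and L85P in exon 3 of Slc1a2, the gene of the astrocytic glutamate transporter GLT-1, and the WT mice were littermates. The age of the mice, the zygosity of the TG mice and the sex of each sequenced mouse are not given in the sources used here, and the labels name no agent given to either group.

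Type I interferons are secreted proteins that a cell makes when its sensors detect foreign or misplaced nucleic acid. They bind the receptor formed by IFNAR1 and IFNAR2, whose kinases JAK1 and TYK2 activate transcription factors that join IRF9 in a complex, which binds the interferon-stimulated response element (ISRE) in front of its target genes. In the brain, microglia, astrocytes, endothelium and neurons can all answer interferon. The 10 genes are classical targets of this pathway. Ifit1, Ifit2 and Ifit3 encode tetratricopeptide repeat proteins that bind viral RNA or each other. Rsad2 (viperin), Oasl2 (of the oligoadenylate synthetase family) and Bst2 (tetherin) act on the replication or release of viruses. Isg15 is a ubiquitin-like modifier, and Usp18 removes it from proteins and also restrains signalling at the receptor. Rtp4 encodes a receptor-transporting protein, and Ifi44 an interferon-induced cytoplasmic protein.

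The promoters that hold the ISRE letters are shown here because this element is the feature through which the pathway is known to reach these genes. RefSeq promoter windows (GRCm38.p6, 250 bases before to 50 bases after the gene start) were found for 8 of the 10 genes, and none was listed for Usp18 or Rtp4. The letters searched on both strands were GAAANNGAAA, which read TTTCNNTTTC on the other strand. They occurred in the windows of 5 of the 8 genes, and in 3.99% of all 27025 genes with a window. Matches may overlap each other, and all of them lay between 156 and 57 bases before the start. In the stretches below, written 5′ to 3′ on the strand of the gene, the capitals mark the matches.
Ifit1, chr19:34640760-34640838 on the plus strand: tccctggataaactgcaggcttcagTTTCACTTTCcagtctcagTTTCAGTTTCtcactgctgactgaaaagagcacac
Ifit3, chr19:34583348-34583441 on the plus strand: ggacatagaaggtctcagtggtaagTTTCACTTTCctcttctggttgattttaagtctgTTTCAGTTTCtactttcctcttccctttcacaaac
Isg15, chr4:156200850-156200921 on the minus strand: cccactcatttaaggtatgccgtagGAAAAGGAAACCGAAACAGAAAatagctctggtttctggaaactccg
Rsad2, chr12:26456538-26456597 on the minus strand: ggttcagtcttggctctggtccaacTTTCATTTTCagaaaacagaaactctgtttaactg
Bst2, chr8:71537562-71537627 on the minus strand: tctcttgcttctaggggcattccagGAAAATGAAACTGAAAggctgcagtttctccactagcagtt
Ifit1 and Ifit3 carry the same pair of matches, TTTCACTTTC and TTTCAGTTTC, at different distances from each other. Isg15 holds 3 overlapping matches and Bst2 holds 2. The windows of Ifit2, Oasl2 and Ifi44 did not hold these letters, which says only that they are absent from these 300 bases.

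The authors deposited FPKM, that is reads scaled by gene length and by library size, so levels can be compared between genes. The reads on genes, recovered from the FPKM, were 16081281 to 18751057 per library, and 3 reads on 1 kb of gene corresponded to an FPKM of 0.160 to 0.190. Slc1a2 itself had an FPKM of 177 to 202 in WT mice and 207 to 222 in TG mice, and FPKM cannot show the G82R and L85P changes. Markers of hippocampal neurons such as Nrgn, Camk2a and Prox1 were present in every library. TG1 and TG2 stood apart from the other libraries in their RNA of choroid plexus, the tissue that secretes cerebrospinal fluid. The FPKM of 18 such genes summed to 1357 in TG1 and 4236 in TG2, against 98.0 in TG3 and 85.6 to 119 in the WT libraries. The labels number the libraries as mice and say nothing more of their origin, so the p-values below measure the spread between these libraries only.

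The 10 genes were expressed at low levels in the WT hippocampus. Bst2 was the most abundant, with a WT mean FPKM of 4.85 ± 0.810 (SD, n = 3), followed by Ifit3 with 3.67 ± 0.183, Ifit2 with 2.14 ± 0.422 and Isg15 with 1.38 ± 0.135 (SD, n = 3 each). Only these 4 genes had a WT mean of at least 1. The WT values of each of these 4 genes lay wholly above those of the next gene in this order. Rtp4, Ifit1, Oasl2 and Usp18 came next, with WT means from 0.639 down to 0.349, and neighbours within this run of 4 overlapped. Rsad2 with 0.213 ± 0.0623 and Ifi44 with 0.0583 ± 0.0224 (SD, n = 3 each) were the lowest, and Ifi44 rested on 4 to 9 reads per WT library.

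**Figure D1:**
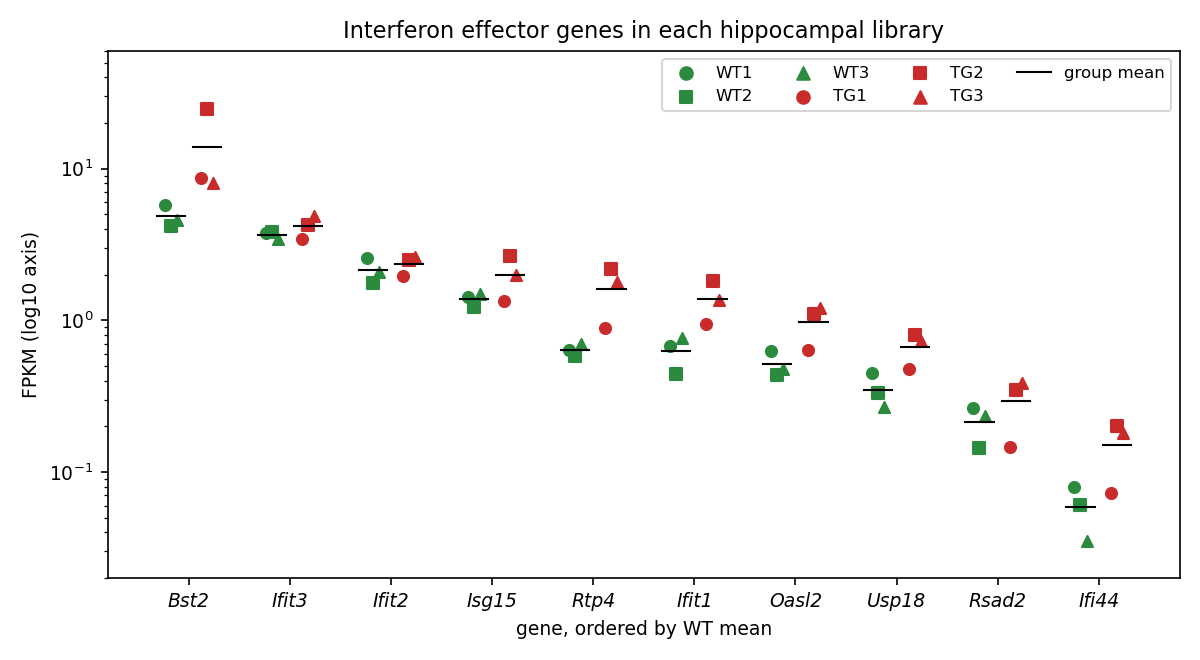
FPKM of the 10 genes in each library on a log10 axis, ordered by WT mean, with WT libraries in green, TG libraries in red, a symbol for each replicate number and a black line at each group mean. The TG values of Bst2, Rtp4, Ifit1, Oasl2 and Usp18 lie above all WT values, and TG1 is the lowest TG library in every gene except Bst2, where TG3 is.

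TG mice were compared with WT mice to ask whether the antiviral genes differed in the hippocampus. All 10 genes had a log2 fold change above 0, from 0.14 to 1.30, where 49.6% of all genes tested were above 0. Their median was 0.70 (0.77 without Ifi44), while the median over all genes tested was -0.00197. Bst2, Rtp4, Ifit1, Oasl2 and Usp18, or 5 of the 10 genes, were higher in TG mice with an unadjusted limma p under 0.05. By this rule 3.13% of all genes tested were higher. The 10 genes were chosen with earlier results of these data known, so the counts here only describe them. None of the 10 was lower, against 2.78% of all genes. The same 5 genes had TG values that all lay above the WT values, a pattern found in 6.35% of the genes tested, and none had TG values that all lay below them, found in 5.71%. After Benjamini-Hochberg adjustment over all genes none of the 10 passed 0.05, with adjusted p-values of 0.786 to 0.858 in limma, and 0.00955% of all genes did. In an exact permutation test of 3 libraries against 3 the smallest two-sided p is 0.1, which these 5 genes reached.

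Bst2 (ENSMUSG00000046718, chromosome 8 from 71534255 to 71537456 in GRCm38) encodes the membrane protein that tethers budding virions to the cell surface. Its FPKM was 5.75, 4.18 and 4.61 in WT1, WT2 and WT3 against 8.75, 24.6 and 8.03 in TG1, TG2 and TG3. All TG values exceeded all WT values, and TG2 was far above TG1 and TG3. The log2 fold change was 1.30 (standard error 0.401, unadjusted p = 0.0132 in limma, exact permutation p = 0.1). TG2 also held the highest level of choroid plexus genes. Without TG2 the log2 fold change was 0.79, at an unadjusted p under 0.05 in limma. With TG3 as the lone TG library, the one at the WT level of choroid plexus genes, it was 0.73. When a choroid plexus score entered the fit as a covariate it was 0.44 and the unadjusted p was above 0.05.

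Rtp4 (ENSMUSG00000033355, chromosome 16 from 23520291 to 23614222) had the lowest p among the 10. Its FPKM was 0.635, 0.581 and 0.702 in WT1, WT2 and WT3 against 0.890, 2.17 and 1.79 in TG1, TG2 and TG3. The WT libraries were close together, TG1 lay a little above them, and TG2 and TG3 were the high libraries. The log2 fold change was 1.14 (standard error 0.311, unadjusted p = 0.00763 in limma, exact permutation p = 0.1), on 20 to 83 reads per library. Gm45338 overlaps an exon of Rtp4, and 11.6% of the 50-base stretches of the Rtp4 transcripts also occur in it, so some reads could be counted for either. Rtp4 kept an unadjusted p under 0.05 in limma when each library in turn was left out. With TG1 and TG2 both left out, its log2 fold change was 1.36.

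The Ifit genes lie in a cluster on chromosome 19, and Ifit1 was the 1 of the 3 with an unadjusted limma p under 0.05; differences between them were not tested. Ifit1 (ENSMUSG00000034459, chromosome 19 from 34640871 to 34650009), whose product binds RNA with an incompletely methylated cap, had an FPKM of 0.672, 0.443 and 0.764 in WT mice against 0.952, 1.83 and 1.36 in TG mice. All TG values were above all WT values, with a log2 fold change of 1.01 (standard error 0.284, unadjusted p = 0.00878 in limma, exact permutation p = 0.1). Ifit2 (ENSMUSG00000045932, chromosome 19 from 34550694 to 34576419) had an FPKM of 2.59, 1.75 and 2.09 in WT mice against 1.96, 2.50 and 2.61 in TG mice. The groups overlapped, with WT1 almost as high as TG3 (log2 fold change 0.14, standard error 0.178, unadjusted p = 0.465 in limma, exact permutation p = 0.6). Ifit3 (ENSMUSG00000074896, chromosome 19 from 34583531 to 34588731) had an FPKM of 3.75, 3.80 and 3.46 in WT mice against 3.44, 4.25 and 4.89 in TG mice. TG1 was the lowest of all 6 libraries for Ifit3, whereas TG2 and TG3 were the highest (log2 fold change 0.17, standard error 0.137, unadjusted p = 0.242 in limma, exact permutation p = 0.4). Of the 50-base stretches of Ifit3, 51.2% also occur in its copy Ifit3b, so reads could be split between them. Ifit3b, a member of the same cluster, had an FPKM of 1.84, 1.33 and 1.44 in WT mice against 1.11, 1.76 and 1.61 in TG mice. The ratio of the FPKM of Ifit1 to that of Ifit3 was 0.179, 0.117 and 0.221 in WT mice against 0.277, 0.430 and 0.277 in TG mice. This ratio was formed after the values were seen and was not tested. Ifit1 and Ifit3 are the genes that share both ISRE matches printed above.

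Isg15 (ENSMUSG00000035692, chromosome 4 from 156199424 to 156200818) and Usp18 (ENSMUSG00000030107, chromosome 6 from 121245906 to 121270917) are the modifier and the protease that removes it. The FPKM of Isg15 was 1.43, 1.23 and 1.48 in WT mice against 1.34, 2.66 and 1.98 in TG mice. TG2 and TG3 were above the WT libraries, and TG1 was among them, so the groups overlapped (log2 fold change 0.45, standard error 0.240, exact permutation p = 0.3, on 15 to 36 reads per library). The FPKM of Usp18 was 0.446, 0.333 and 0.268 in WT mice against 0.476, 0.800 and 0.734 in TG mice. All TG values were above all WT values, although TG1 exceeded WT1 only narrowly, and the log2 fold change was 0.77 (standard error 0.283, unadjusted p = 0.0283 in limma, exact permutation p = 0.1) on 14 to 40 reads per library. The gene Gm44148 overlaps Usp18 on the opposite strand and shares 2.81% of its stretches.

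Oasl2 (ENSMUSG00000029561, chromosome 5 from 114896936 to 114912234) had an FPKM of 0.628, 0.437 and 0.478 in WT mice against 0.635, 1.10 and 1.21 in TG mice. TG1 was level with WT1, on 64 and 74 reads, and TG2 and TG3 were well above every WT library (log2 fold change 0.78, standard error 0.277, unadjusted p = 0.0243 in limma, exact permutation p = 0.1). Rsad2 (ENSMUSG00000020641, chromosome 12 from 26442746 to 26456452), whose enzyme makes a nucleotide that ends the RNA chain of a virus, had an FPKM of 0.262, 0.143 and 0.234 in WT mice against 0.146, 0.347 and 0.383 in TG mice. TG1 was level with the lowest WT library, and the log2 fold change of 0.29 was smaller than its standard error of 0.386 (unadjusted p = 0.483 in limma, exact permutation p = 0.5). Ifi44 (ENSMUSG00000028037, chromosome 3 from 151730922 to 151749960) had an FPKM of 0.0794, 0.0606 and 0.0349 in WT mice against 0.0722, 0.200 and 0.181 in TG mice. Here too TG1 was inside the WT range, and the values rested on 4 to 22 reads (log2 fold change 0.63, standard error 0.444, unadjusted p = 0.195 in limma, exact permutation p = 0.2).

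**Figure D2:**
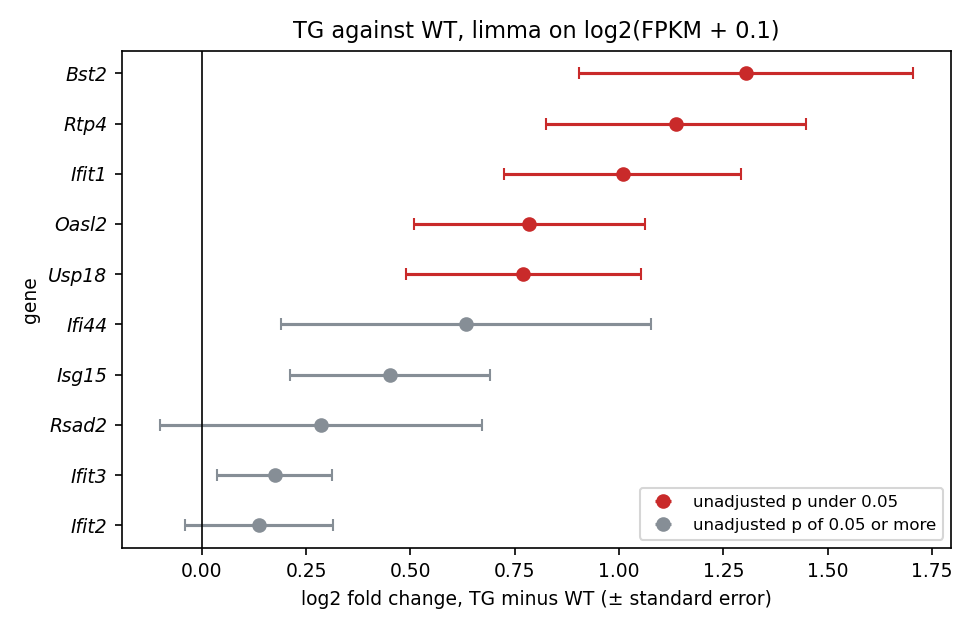
Log2 fold change of TG against WT for the 10 genes from limma on log2(FPKM + 0.1), with bars of 1 standard error, in red for an unadjusted p under 0.05. All 10 points lie right of 0, from 0.14 for Ifit2 to 1.30 for Bst2, and 5 of them are red.

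The level of the 10 genes varied among the TG libraries. As log2 deviations from a gene's own WT mean, the 10 genes had a median of 0.21, -0.17 and -0.04 in WT1, WT2 and WT3 against 0.20, 0.96 and 0.78 in TG1, TG2 and TG3. TG1 was thus at the level of WT1, and TG2 and TG3 were above all WT libraries. In TG3 all 10 genes exceeded their highest WT value, in TG2 it was 9 (all but Ifit2) and in TG1 it was 5. The highest value of a gene was in TG2 for 6 genes and in TG3 for 4, while the lowest was in WT2 for 7 genes, in WT3 for 2 and in TG1 for 1. These counts per library include Ifi44. The matching shares of all genes were not computed, so the counts only describe the 10 genes. Leaving out single libraries changed the number of genes called at an unadjusted p under 0.05 in limma from 5 to 2 without WT2 or WT3 (Rtp4 and Ifit1), to 3 without TG2 or TG3 (Bst2, Rtp4 and Ifit1) and to 8 without TG1, where Ifit3, Isg15 and Ifi44 were added. Over all genes, those higher by this rule numbered 656 in all libraries, 614 without WT2, 449 without WT3, 453 without TG2, 590 without TG3 and 527 without TG1.

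Markers of other cells were compared by the same measure. The 15 microglial genes had medians of 0.06, -0.08 and -0.02 in WT1, WT2 and WT3. In TG1, TG2 and TG3 these were -0.23, 0.23 and 0.23, so by the median TG2 and TG3 were again the high libraries. The summed FPKM of the 15 genes was 218 to 244 in WT mice and 200.4 to 271 in TG mice. Trem2 and Csf1r, 2 of the 15, were higher with an unadjusted limma p under 0.05, and 0 were lower. For comparison with this and the other marker lists, 3.13% of all genes tested were higher and 2.78% lower by this rule. The log2 fold change was above 0 in 9 of the 15 microglial genes, with a median of 0.10, and in 49.6% of all genes tested. Fcrls went the other way (log2 fold change -0.21), with its lowest FPKM in TG2 and TG3, 7.41 and 6.52. With the microglial score as a covariate, the same 5 effector genes had an unadjusted p under 0.05 in limma. Over all genes tested, 605 were higher by this rule, in place of 656. The median log2 fold change of the 10 genes with this score was 0.60. In bulk tissue, more cells of a type and more RNA per cell cannot be told apart. Of the 12 T and NK cell genes, 7 were tested, and 4 of these (Nkg7, Cd8a, Cd3d and Cd4) reached the minimum level only through the TG libraries. The 12 genes were close to the detection limit, with sums of 1.81 to 2.81 FPKM in WT mice and 2.47 to 4.79 in TG mice, Cd3e had at most 6 reads in a library and Ncr1 was listed at 0 in every library. Of these genes, Trbc2 was higher, on 2 to 26 reads per library. Its FPKM was 0.156, 0.537 and 0.386 in WT mice against 0.913, 0.967 and 2.08 in TG mice (log2 fold change 1.63, standard error 0.430). Trac, the most abundant of the list, had 0.810, 0.596 and 1.43 in WT mice against 0.338, 1.31 and 0.829 in TG mice (log2 fold change -0.25). Log2 fold changes were above 0 in 6 of the 7 T and NK cell genes tested, where 49.6% of all genes tested were above 0. Markers of border macrophages and monocytes summed to 2.10 to 3.32 FPKM in WT mice and 3.74 to 4.01 in TG mice, and none of the 7 tested had a p under 0.05. Endothelial markers summed to 81.0 to 94.3 FPKM in WT mice and 87.8 to 90.9 in TG mice, with 1 of 10 higher (Flt1). None of the 10 astrocyte, 10 neuron, 10 meningeal and 5 red cell markers tested was higher or lower by this rule. The part of these cells in the effector genes was not tested. The microglial score is a mean over markers that did not all change in the same direction, so it cannot measure that part.

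The choroid plexus genes followed another order. Their median was 3.10 and 4.60 in TG1 and TG2 and 0.11 in TG3, whereas the median of the effector genes was lower in TG1 than in TG3. Bst2 was the exception among the 10, with TG2 highest, TG1 next and TG3 the lowest of the TG libraries, the order of the choroid plexus genes. Without TG1 and TG2 the median log2 fold change of the 10 genes was 0.78, compared with 0.70 in all libraries. TG3 is then the only TG library and was assumed to vary like the WT libraries. With the choroid plexus score as a covariate the median was 0.53 and none of the 10 had an unadjusted p under 0.05 in limma (the smallest was that of Rtp4), while the number of all genes higher at this level fell from 656 to 323.

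**Figure D3:**
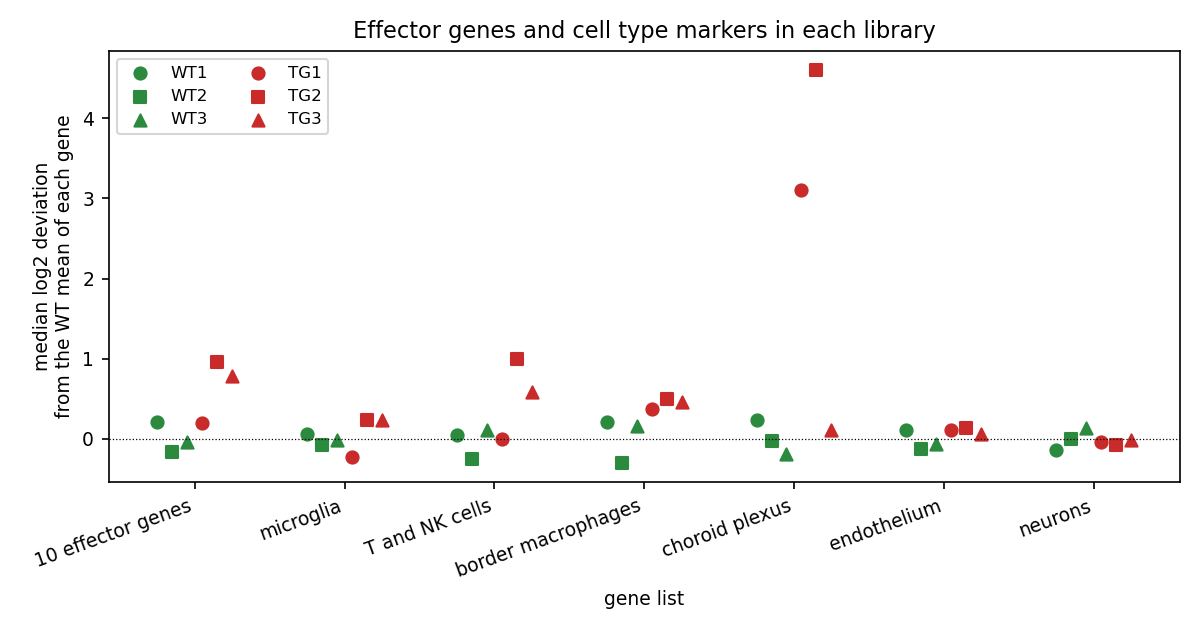
Median log2 deviation from the WT mean of each gene, for the 10 effector genes and for lists of cell type markers, with 1 symbol per library (WT in green, TG in red). The effector genes are at 0.20 in TG1, 0.96 in TG2 and 0.78 in TG3, whereas the choroid plexus genes are at 3.10, 4.60 and 0.11. Ifi44, Steap1 and Tmem72 of choroid plexus, Ms4a7 of border macrophages, and Nkg7, Cd8a, Cd3d and Cd4 of T and NK cells entered these medians only through their TG levels.

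The steps of the pathway above the effector genes were examined on lists written by hand. Ligand RNA was hardly detected. Of 20 genes of type I and type III interferons, 19 were listed at 0 in all 6 libraries and Ifnz had 2 reads in WT3, and Ifng had 1 read in TG2. For a gene of 1 kb, a count of 0 allows a level of up to the FPKM of 3 reads, 0.160 to 0.190. The receptors were well expressed. Ifnar1 had an FPKM of 7.60, 7.57 and 6.89 in WT mice against 8.02, 7.71 and 7.75 in TG mice, so that all TG values were above all WT values by a small margin (log2 fold change 0.09, standard error 0.0757). Ifnar2 had 3.92, 3.55 and 3.77 in WT mice against 3.63, 5.13 and 4.76 in TG mice, with TG1 inside the WT range and TG2 and TG3 above it (log2 fold change 0.25, standard error 0.139). Ifngr1, Ifngr2 and Il10rb had log2 fold changes of 0.01, -0.02 and 0.13, and Ifnlr1 was not tested, with at most 17 reads in a library. None of the 5 receptor genes tested was higher or lower at an unadjusted p under 0.05.

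The receptor kinases, Stat2 and Irf9 were not called either. Jak1, Jak2 and Tyk2 had log2 fold changes of -0.06, -0.05 and -0.04. Stat2 and Irf9 had 0.21 and 0.27, and of these 5 genes Stat2 was the one whose groups did not overlap. Of the interferon regulatory factors, Irf7, which sustains interferon production and is itself an interferon target, was the 1 of 6 that was higher. Its FPKM was 0.573, 0.443 and 0.410 in WT mice against 0.937, 1.27 and 0.982 in TG mice, with TG1 close to TG3 and both above every WT value (log2 fold change 1.02, standard error 0.215, unadjusted p = 0.00193 in limma, exact permutation p = 0.1). Irf1, Irf2, Irf3, Irf5 and Irf8 had log2 fold changes from 0.05 for Irf3 to 0.35 for Irf5, with overlapping groups. Of the 12 nucleic acid sensors and adaptors, Ifih1, the sensor MDA5 of long double-stranded RNA, was the one with a p under 0.05. It had an FPKM of 0.431, 0.440 and 0.353 in WT mice against 0.758, 0.779 and 0.698 in TG mice, with all TG libraries at a similar level (log2 fold change 0.74, standard error 0.205, unadjusted p = 0.00819 in limma, exact permutation p = 0.1). All 12 had a log2 fold change above 0, with a median of 0.26, where 49.6% of all genes tested were above 0. However, Zbp1 reached the minimum level only through the TG libraries, and Tbk1, the most abundant, had 0.01.

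Among 28 other antiviral effectors, 23 were tested and 6 were higher at an unadjusted p under 0.05 in limma (Trim25, Oas1a, Samhd1, Trim30a, Ifitm3 and Shisa5), none lower, and the median log2 fold change was 0.34. Oas1a, an enzyme that activates RNase L, had an FPKM of 0.201, 0.263 and 0.283 in WT mice against 0.369, 0.799 and 0.764 in TG mice, on 7 to 27 reads. As in Oasl2, TG1 was the lowest TG library. Trim25, a ubiquitin ligase of the RIG-I pathway that also attaches ISG15, had 1.33, 1.43 and 1.41 in WT mice against 1.69, 2.11 and 2.10 in TG mice (log2 fold change 0.47, standard error 0.139). Samhd1, which depletes deoxynucleotides, had 1.75, 1.76 and 1.68 in WT mice against 2.28, 2.15 and 2.20 in TG mice. The TG libraries were nearly equal for Samhd1, TG1 included. Cmpk2, the neighbour of Rsad2 on chromosome 12, had 5.11, 5.50 and 5.59 in WT mice against 5.74, 5.57 and 5.52 in TG mice (log2 fold change 0.05, standard error 0.0791). Mx1, Oas1g, Oas3 and Oasl1 stayed under the minimum with at most 8 reads in a library, and Ifi44l was listed at 0. The FPKM of Ifi27, which was the most abundant here, was 24.1, 21.99 and 24.4 in WT mice against 27.9, 47.1 and 24.5 in TG mice. TG2 was thus the high library, and TG3 was level with WT3 (log2 fold change 0.44, standard error 0.223, unadjusted p = 0.0878 in limma). Of the other genes of ISG15 conjugation, the activating enzyme Uba7, the conjugating enzyme Ube2l6 and the ligase Herc6 had log2 fold changes of 0.34, 0.20 and 0.37, none under an unadjusted p of 0.05 in limma. The 6 further negative regulators of the pathway had no gene under 0.05, and Usp25 came closest (log2 fold change 0.16, standard error 0.0671), with TG values of 9.84 to 10.5 all above WT values of 9.01 to 9.27. Over all these lists, 60 distinct genes other than the 10 were tested, 8 were higher and 0 lower at an unadjusted p under 0.05 in limma, where 3.13% of all genes were higher and 2.78% lower, and their median log2 fold change was 0.21. The lists were written with earlier results of these data known, so they are a description.

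**Figure D4:**
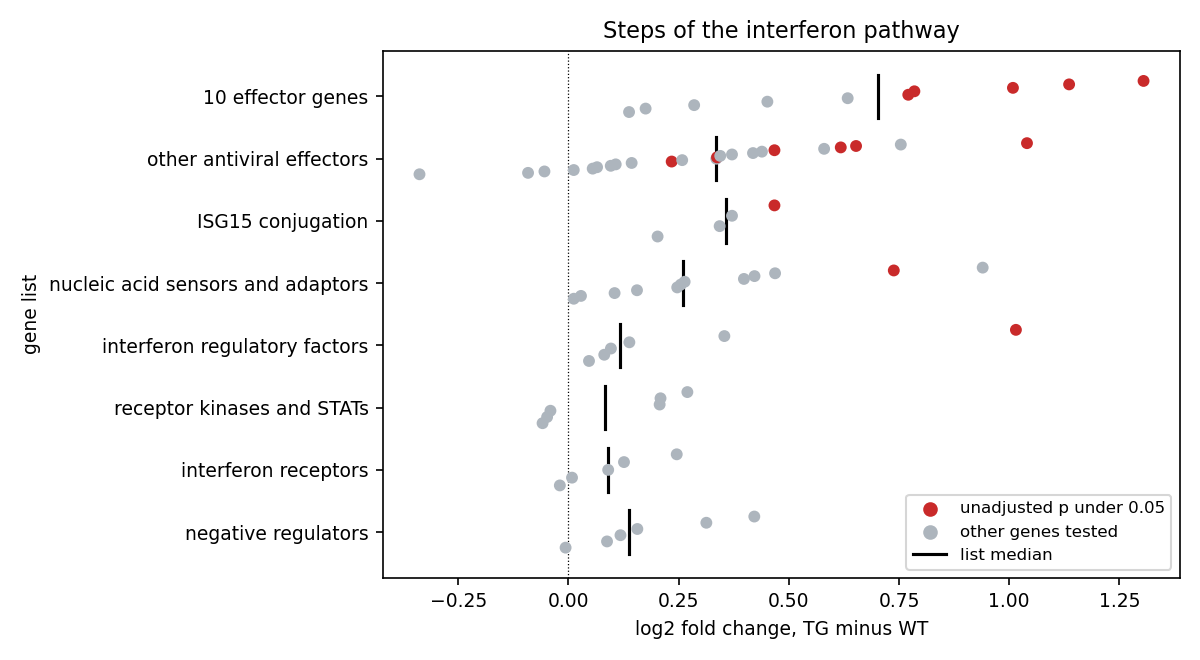
Log2 fold change of TG against WT for each tested gene of the pathway lists, 1 point per gene, in red for an unadjusted p under 0.05, with a black line at the median of each list. The median is 0.70 for the 10 effector genes, 0.34 for other antiviral effectors, 0.26 for sensors and 0.08 to 0.14 for regulatory factors, kinases and STATs, receptors and negative regulators.

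The genes whose pattern was most like that of the 10 were sought among the 13319 genes whose mean FPKM reached 1. Likeness was the mean absolute difference, over the 6 libraries, between a gene's log2 deviations from its WT mean and the median deviations of the 10 genes. The closest was Itgb2, the beta chain of leukocyte integrins, at 0.0963, with an FPKM of 2.27, 1.60 and 1.89 in WT mice against 2.34, 3.18 and 3.07 in TG mice. Vcam1, an adhesion molecule, followed at 0.118, Psmb8, a subunit of the immunoproteasome, at 0.119, Gm12231 at 0.125 and Il10ra, a chain of the interleukin-10 receptor, at 0.129. In all 5 the TG values lay above the WT values, with log2 fold changes from 0.53 to 0.84. These genes were chosen for their likeness to the 10, so higher TG values follow from the choice.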

How the data were processed

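Hippocampal RNA of 3 WT and 3 TG mice was analysed. The authors counted reads per gene with HTSeq and deposited FPKM computed from gene length and read count, 1 column per library. Trizol and a NEBNext library kit stand in the study's methods, RNeasy and SMARTER kits in the labels. The aligner and the handling of strand and of reads matching several genes are not given in the sources used here, and the submitters' processing notes name GRCm38 and mm10. Of the gene identifiers, 54495 were found in GENCODE M21 (GRCm38) and 53585 had the same start and end. Reads were recovered from FPKM and gene length, and 100% came out whole within 0.05 reads.

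TG was compared with WT by limma (3.58.1, R 4.3.3) on log2(FPKM + 0.1), using eBayes with a trend on expression, over genes whose mean FPKM reached 0.1, with Benjamini-Hochberg adjustment over all of them. This scale understates fold changes of low genes. A count model was not the main test because the values are FPKM. Alternatives were other pseudocounts, filters, scalings and variance models, limma-voom on the recovered reads, libraries left out, a replicate block, and scores of choroid plexus or microglia markers as covariates. No molecular identifiers were used, so limits from reads cover counting error only. Shared sequence is the percentage of a gene's 50-base transcript stretches found, on either strand, in a transcript of another gene of GENCODE M21.

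The 10 genes and the lists were chosen with earlier results of these data known. Genes were named by this rule: the 10 genes, all receptors, kinases, STATs and regulatory factors, in other lists the gene of lowest p and that of highest level, the nearest tested coding genes and the 5 genes of closest pattern. Other genes were named after their values were seen. The values of 1 gene that this rule names are not reported here. Scripts ran in Python 3.11.15.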

Additional observations from a re-analysis of the deposited data

How the results depend on the processing

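The direction of the log2 fold change of each of the 10 genes was the same under every alternative run. The median log2 fold change of the 10 genes was 0.70, and 0.31 with a pseudocount of 1, which shrinks the values of low genes. Of the 5 genes called at an unadjusted p under 0.05 in limma, 3 were called with a filter at a mean FPKM of 1, which removes Oasl2 and Usp18, 0 with the choroid plexus score as a covariate, and 2 to 8 when each library in turn was left out. The 8 other pathway genes called became 5 with that filter, 5 without TG1 and TG2, 2 with the choroid plexus score and 5 to 11 with single libraries left out. Over all genes, 2 had an adjusted p under 0.05; the number was 1 with the filter at 1, 9 without the variance trend, 0 to 6 with single libraries left out, and 0 with either other pseudocount, without a filter, with FPKM scaled to a common sum, with limma-voom, without TG1 and TG2, with the replicate block and with either covariate. With the choroid plexus score, 323 genes were higher and 372 lower at an unadjusted p under 0.05, in place of 656 and 582; the cause was not tested. Labels share replicate numbers, but same-numbered libraries did not deviate together (correlations across genes of 0.0125, 0.0434 and 0.00314, and library 3 did not correlate best with its own number), so the block pairs numbers only; with the replicate block 4 of the 10 genes were called and the median log2 fold change stayed at 0.70. Depth limits Ifi44, Rsad2, Isg15, Usp18 and all ligands.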

Other observations

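The nearest tested coding genes on each side of the 10 genes were compared, as a description of the chromosomal surroundings. Of these 18 distinct neighbours, 0 were higher and 1 was lower at an unadjusted p under 0.05 in limma, with a median log2 fold change of 0.04. Over all genes tested, 3.13% were higher and 2.78% lower by this rule. Among the neighbours, Ifit1bl1, Ifit1bl2 and Cmpk2 are themselves in the list of other antiviral effectors. The lower gene, 2610524H06Rik beside Oasl2, had an FPKM of 12.1, 12.9 and 18.05 in WT mice against 8.54, 11.7 and 10.6 in TG mice. On chromosome 19, Lipa, the lysosomal lipase that precedes the Ifit genes, had an FPKM of 6.28 to 6.56 in WT mice and 6.55 to 8.36 in TG mice. Ifit1bl1 and Ifit1bl2, relatives of Ifit1 that lie between Ifit3 and Ifit1, had log2 fold changes of 0.06 and -0.09. Slc16a12, which follows Ifit1, had the highest log2 fold change of the neighbours, 0.63 (standard error 0.308), with an FPKM of 1.27, 0.841 and 0.738 in WT mice against 1.72, 2.00 and 0.943 in TG mice, so the groups overlapped. The neighbours of Bst2, Plvap and Mvb12a, had 0.17 and 0.03, and those of Isg15, Agrn and AW011738, had 0.07 each.

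The ISRE letters were also looked up in the promoters of the other genes tested that had a RefSeq window. Tested genes without a window were not looked up. Of 461 genes with the letters in a RefSeq window, 29 (6.29%) were higher in TG mice and 14 (3.04%) lower by the unadjusted rule. Of 12478 genes with a window without them, 349 (2.80%) were higher and 311 (2.49%) lower. The median log2 fold changes were 0.02 and -0.000349. The difference was not tested.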
